A study of Mus musculus with 12 samples.

Results

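The Rasgrp family comprises 4 genes, Rasgrp1, Rasgrp2, Rasgrp3 and Rasgrp4, found by symbol among the 33696 genes counted in single γδ T cells and thymic T-cell precursors of WT and GFI1 KO mice. They were chosen by their levels and their shares of cells with a UMI in each compartment and genotype of these libraries. Their levels by tissue and genotype are therefore given as a description without a test. Tests were kept for contrasts between cells of the same library and for other genes of the pathway. The lists of those genes were also set with earlier results of these data known.

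RASGRP proteins are exchange factors that load small GTPases of the Ras and Rap families with GTP. A C1 domain brings RASGRP1 to membranes where phospholipase C has produced diacylglycerol after antigen receptor engagement, and diacylglycerol kinases end that signal. In T cells, RASGRP1 is known as the main link from the T-cell receptor to Ras and the Raf-MEK-ERK cascade, while RASGRP2, also called CalDAG-GEFI, acts mainly on Rap1 and integrin adhesion. RASGRP3 is best known from B cells and RASGRP4 from mast cells and other myeloid cells.

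Transcripts were counted as unique molecular identifiers (UMIs) by a droplet method (10x Genomics, 3′ ends) in γδ T cells sorted from spleen, thymic γδ T cells and thymic precursors lacking CD4 and CD8, sorted together at the stages DN1 to DN3 and called DN cells below. The adult mice were WT or carried a germline deletion of Gfi1, which encodes a transcriptional repressor, on the C57BL6/J background, and no other allele or agent was named. Each of 6 pools, 2 per compartment, mixed WT and KO cells that carried different hashtag antibodies, which gave 12 libraries with 2 per genotype and compartment. Before sorting, cells bearing lineage markers that included Gr1, CD11b, CD11c, NK1.1 and CD49b had been depleted by magnet. The number of mice in a pool was not given in the sources used here, so the spread between libraries of a group is that between 2 pools and may be technical.

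The 12 libraries held 42091895 to 71663962 UMIs from 6795 to 11679 cells, with a median of 4947 to 6853 UMIs per cell. The same pool's libraries shared 0 cell barcodes, and 60 pairs of libraries from different pools shared 5 to 34. Gfi1 was not lower in the KO-labelled libraries. It stood at 11.8 to 18.0 CPM (UMIs of the gene relative to all UMIs of its library) under the WT label and at 18.1 CPM in both KO-labelled libraries of the spleen, at 16.5 to 17.6 against 19.2 to 28.9 CPM in thymic γδ T cells and at 40.6 to 44.7 against 56.6 to 70.6 CPM in DN cells, so that it was higher under the KO label in all 3, and the counted 3′ end need not lie in the deleted part. The genotypes below are therefore those of the hashtag labels. Trdc, which encodes the δ chain constant region, stood at 1233 to 2051 CPM in γδ T libraries and at 126 to 199 CPM in DN libraries. Ptcra, which encodes the pre-T-cell receptor α chain, stood at 95.4 to 168 CPM in DN libraries and at no more than 5.07 CPM in γδ T libraries. Cells whose leading Trgv gene was Trgv6 made up 3.44% to 4.31% of called cells in splenic WT-labelled libraries but 57.7% to 66.0% in KO-labelled ones, and in the thymic γδ T libraries 0.840% to 0.991% and 44.1% to 53.3%. Pairs of values below are for pool 1 and then pool 2.

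Rasgrp3 was the member with the widest difference between genotypes, and its promoters are shown for that reason. GFI1 is known to bind DNA at a core AATC. RefSeq (GRCm38.p6) gives 2 starts for Rasgrp3, and the windows run from 250 bases before to 50 bases after each start on the plus strand. The first window is chr17:75435655-75435954 and the second is chr17:75465288-75465587. Capitals mark AATC, which was searched on both strands as AATC and GATT.
Rasgrp3 first start: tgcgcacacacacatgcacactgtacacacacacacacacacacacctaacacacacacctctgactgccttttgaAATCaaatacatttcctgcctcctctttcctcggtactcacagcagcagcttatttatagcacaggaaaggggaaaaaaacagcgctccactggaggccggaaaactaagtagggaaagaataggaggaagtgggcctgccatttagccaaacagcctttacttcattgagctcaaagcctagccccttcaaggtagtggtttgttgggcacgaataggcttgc
Rasgrp3 second start: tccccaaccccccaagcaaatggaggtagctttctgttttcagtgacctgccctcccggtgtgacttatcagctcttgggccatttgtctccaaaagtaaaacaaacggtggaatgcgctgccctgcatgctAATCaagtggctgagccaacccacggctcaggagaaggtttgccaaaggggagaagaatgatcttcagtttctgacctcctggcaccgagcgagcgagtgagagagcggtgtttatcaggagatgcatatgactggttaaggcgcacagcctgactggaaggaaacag
Each window held 1 AATC. The first also held 1 match to the longer AAATCA, which includes the AATC match. The promoter window of Rasgrp1 (chr2:117342828-117343127, minus strand) held 1 AATC, and the 2 windows of Rasgrp2 held 1 and 0. Of 32851 promoter windows of 300 bases, 73.1% held AATC and 14.0% held AAATCA on either strand, so that a match is common and is given only as a description. These windows come from another build than the GRCm39 named for the counts.

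**Figure D1:**
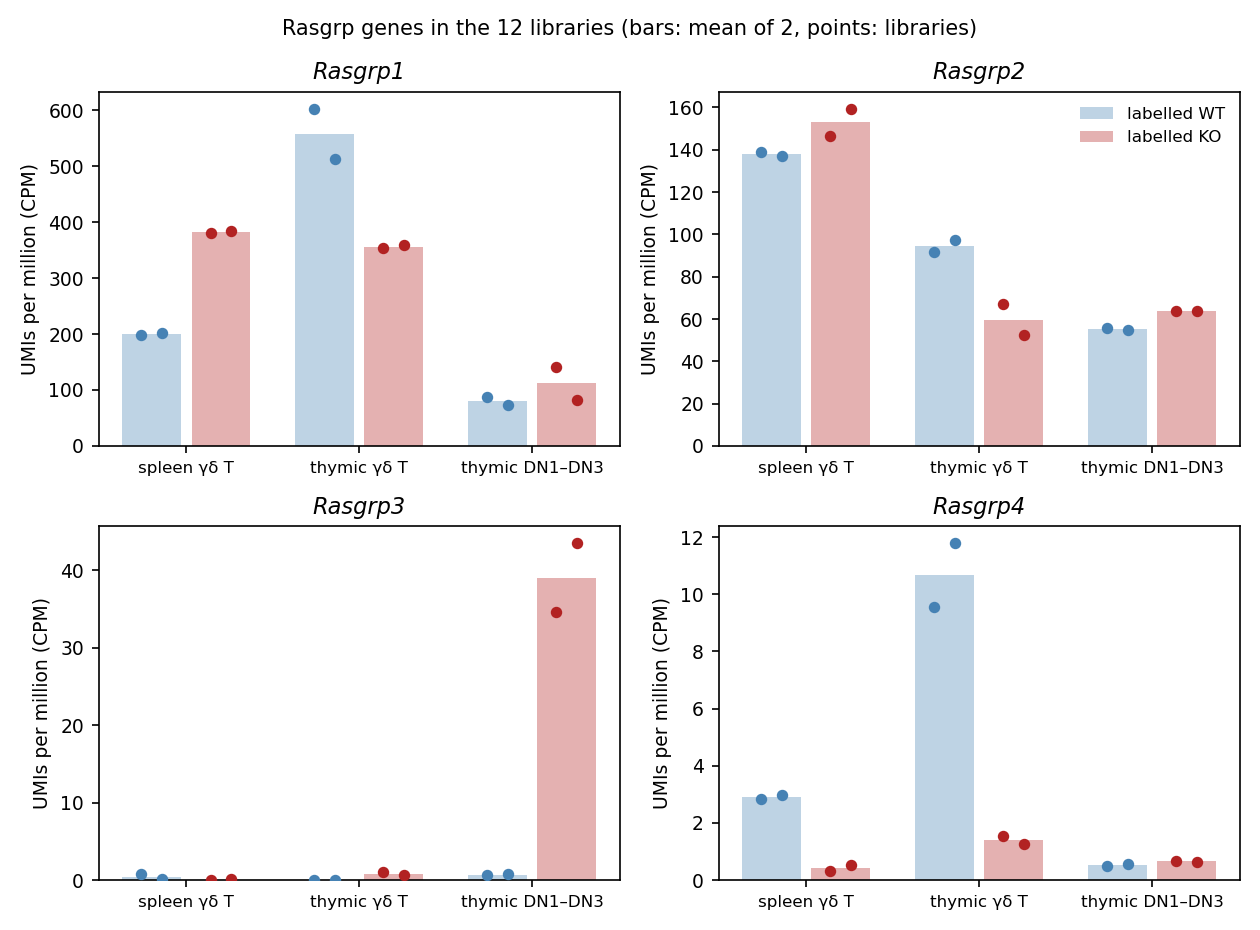
Levels of the 4 Rasgrp genes in the 12 libraries, with 1 point per library, bars at the mean of 2, the compartments and labels on the horizontal axis and CPM on the vertical axis. Rasgrp1 is highest in thymic γδ T WT-labelled libraries, at 513 and 602 CPM, and Rasgrp3 reaches 34.6 and 43.5 CPM in DN KO-labelled libraries.

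Rasgrp1, the Ras exchange factor of the T-cell receptor pathway, differed between genotypes in opposite directions in the γδ T cells of the spleen and the thymus. In splenic γδ T cells Rasgrp1 stood at 199 and 202 CPM in the WT-labelled libraries and at 381 and 384 CPM in KO-labelled ones. In the thymus Rasgrp1 of γδ T cells stood at 602 and 513 CPM under the WT label and at 353 and 359 CPM under the KO label. The groups did not overlap in either organ, and the KO to WT ratio of means was 1.91 in the spleen (pools 1.92 and 1.90) and 0.639 in the thymus (pools 0.586 and 0.701). In DN cells Rasgrp1 was lower than in any γδ T library, at 87.7 and 72.9 CPM under the WT label and 141 and 82.9 CPM under the KO label, and these groups overlapped. From high to low, the groups ran from thymic γδ T WT over splenic KO, thymic γδ T KO and splenic WT to the DN cells. Only the 2 DN groups at the end of this order were not separated by their libraries.

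Rasgrp1 was also compared within classes of cells set by their γ chain. A γδ T cell was assigned the Trgv gene with the most UMIs where 1 gene led, which 55.8% to 68.4% of cells in splenic and 66.3% to 72.2% in thymic γδ T libraries met, and the other cells are in no class. The KO to WT ratio of Rasgrp1 in splenic cells was 1.95 in Trgv1-called, 1.80 in Trgv2-called, 1.64 in Trgv4-called and 1.32 in Trgv6-called cells. In the thymus the ratio was 0.444 in Trgv1-called, 0.589 in Trgv2-called, 0.608 in Trgv4-called and 0.723 in Trgv6-called cells, of which the WT-labelled libraries held 41 and 57. All 8 ratios lay on the side of their organ's overall ratio. Similar Trgv sequences can split reads, so these calls are uncertain to that extent. A class also need not hold like cells in both genotypes, since splenic Trgv6-called and other called cells differed in 26.8% of genes under the WT label but in 0.178% under the KO label, in a test described with the comparisons within libraries.

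In DN cells of both labels Rasgrp1 was lower in cells with more Ptcra UMIs. Cells without a Ptcra UMI had 105 and 89.4 CPM of Rasgrp1 in the WT-labelled libraries and 175 and 113 CPM in KO-labelled ones. Cells with at least 4 Ptcra UMIs had 54.9 and 49.4 CPM under the WT label and 59.7 and 42.9 CPM under the KO label. In all cells with at least 2 Ptcra UMIs, Rasgrp1 stood at 64.1 and 53.1 CPM under the WT label and 68.6 and 50.1 CPM under the KO label. The genotypes overlapped there, with a ratio of 1.01. Il2rb encodes the interleukin-2 receptor β chain, and cells with at least 2 Il2rb UMIs numbered 130 and 122 in DN WT-labelled libraries and 945 and 532 in KO-labelled ones. Their Rasgrp1 was 145 and 162 CPM under the WT label and 161 and 104 CPM under the KO label. Without those cells the DN libraries had 87.0 and 71.9 CPM against 139 and 81.5 CPM of Rasgrp1, a ratio of 1.38 against 1.40 with them. The summed CPM of 4 αβ T-cell markers (Trac, Cd4, Cd8a and Cd8b1, none at 0) was 27.3 to 31.3 in DN WT-labelled libraries and 72.0 to 164 in KO-labelled ones, and its part in the DN levels of Rasgrp1 was not tested.

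Rasgrp2, the Rap1 exchange factor, was highest in splenic γδ T cells and differed most between genotypes in thymic γδ T cells. Splenic libraries had 139 and 137 CPM of Rasgrp2 under the WT label and 147 and 159 CPM under the KO label. Thymic γδ T libraries had 91.9 and 97.2 CPM under the WT label and 66.9 and 52.5 CPM under the KO label. DN libraries had 56.0 and 54.7 CPM under the WT label and 63.8 and 64.0 CPM under the KO label. The groups did not overlap in any of the 3 compartments, with KO to WT ratios of 1.11 in spleen, 0.632 in thymic γδ T cells and 1.15 in DN cells. The splenic value moved with the scale, since the log2 ratio of 0.15 was 0.014 when ribosomal, mitochondrial and Gm-numbered genes were left out of the totals and 0.24 in the TMM-scaled edgeR fit, and the median of all tested genes lay at -0.08 on the log2 CPM scale. At the lower end of the order, the KO-labelled thymic γδ T group overlapped with each DN group, while the DN groups did not overlap with one another.

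In DN cells with at least 2 Ptcra UMIs, Rasgrp2 stood at 42.2 and 42.7 CPM under the WT label and 51.7 and 42.7 CPM under the KO label, and the libraries overlapped. The splenic and thymic γδ T differences in Rasgrp2 were not shared by every class of cells. In spleen its KO to WT ratio was 1.07 in Trgv1-called and 1.08 in Trgv2-called cells, but 1.01 in Trgv4-called and 0.880 in Trgv6-called cells, where it stood at 191 and 154 CPM under the WT label and 147 and 156 CPM under the KO label. The genotypes overlapped in these splenic classes except the Trgv1-called cells. In thymic γδ T cells the ratio was 0.652 in Trgv1-called, 0.912 in Trgv2-called, 1.17 in Trgv4-called and 0.564 in Trgv6-called cells. The groups overlapped in the latter 2 classes, with ratios of 1.38 and 0.999 in the pools for Trgv4-called cells and of 1.32 and 0.322 for Trgv6-called cells. The ratio was 0.491 in thymic γδ T cells without a Cd24a UMI and 2.07 in those with at least 3, Cd24a being a surface protein of immature thymic γδ T cells.

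Rasgrp3, the member known from B cells, was near the limit of counting in every group except the DN KO-labelled cells. DN WT-labelled libraries held 41 and 48 UMIs of Rasgrp3, which is 0.663 and 0.770 CPM. DN KO-labelled libraries held 1613 and 2449 UMIs, which is 34.6 and 43.5 CPM. The KO to WT ratio was 54.5, with 52.1 and 56.5 in the pools, and both pools lay on the same side. A Rasgrp3 UMI was seen in 0.527% and 0.575% of DN WT-labelled cells (medians of 6231 and 5975 UMIs per cell) and in 14.3% and 20.1% of KO-labelled ones (medians of 5590.5 and 5792). With each cell thinned to 2000 UMIs these shares were 0.211% and 0.246% against 5.39% and 7.16%. For reference, the shares in thymic γδ T WT-labelled cells were 0.0440% and 0.0377%, at medians of 6853 and 6850 UMIs. Cells of both labels shared a droplet run, and the part of free RNA in the few UMIs of the WT-labelled cells was not tested.

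DN KO-labelled cells with and without a Rasgrp3 UMI were compared in lineage markers, the former being deeper, at medians of 8215 and 8353 against 5352.5 and 5365.5 UMIs. Of the cells with a Rasgrp3 UMI, 93.3% and 91.5% also had a UMI of Cd3e, a chain of the CD3 complex, and 59.0% and 67.3% had one of Ptcra. In DN KO-labelled cells without a Rasgrp3 UMI, Cd3e was seen in 88.2% and 84.5% and Ptcra in 24.1% and 42.4%. Trac was seen in 8.18% and 4.61% of the cells with a Rasgrp3 UMI and in 39.7% and 21.3% of those without. A UMI of the B-lineage markers Cd79a, Cd79b or Ebf1 was seen in 20.8% and 22.6% of the former and in 9.07% and 12.5% of the latter. The summed CPM of these B-lineage markers, none at 0, was 21.9 to 23.5 in DN WT-labelled libraries and 23.2 to 35.2 in KO-labelled ones. Most of each sum came from Cd79b, at 19.7 to 21.9 against 19.0 to 25.2 CPM. Cd79a stood at 0.674 to 1.08 CPM under the WT label and 2.36 to 5.17 CPM under the KO label. Ebf1 stood at 1.01 to 1.04 against 1.78 to 4.85 CPM, and the groups did not overlap for Cd79a or Ebf1. Cells with at least 5 UMIs of these markers numbered 22 and 61 under the KO label and held 45 and 123 of the Rasgrp3 UMIs. In such cells Rasgrp3 had a mean of 169 CPM under the KO label and 137 CPM under the WT label. After every cell with a UMI of those 3 markers was left out, Rasgrp3 stood at 31.8 and 40.9 CPM under the KO label and 0.651 and 0.673 CPM under the WT label, and the ratio was 54.9.

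Among DN KO-labelled cells, Rasgrp3 was higher in cells with Ptcra. It stood at 21.9 and 31.4 CPM in cells without a Ptcra UMI and at 61.2 and 52.6 CPM in cells with at least 2. In WT-labelled cells with at least 2 Ptcra UMIs it stood at 0.590 and 0.468 CPM, from 10 and 9 UMIs, which gives a ratio of 107. Just outside the threshold, KO-labelled cells with 1 Ptcra UMI had 49.1 and 55.5 CPM, and just inside it cells with 2 had 61.8 and 51.3 CPM. The step between those neighbours was smaller than the step from 0 to 1 Ptcra UMI in both pools. Cells labelled KO with at least 2 UMIs of Kit, a receptor of early precursors, had 53.1 and 33.6 CPM of Rasgrp3, while KO-labelled cells with at least 2 Il2rb UMIs had 5.16 and 9.75 CPM.

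**Figure D2:**
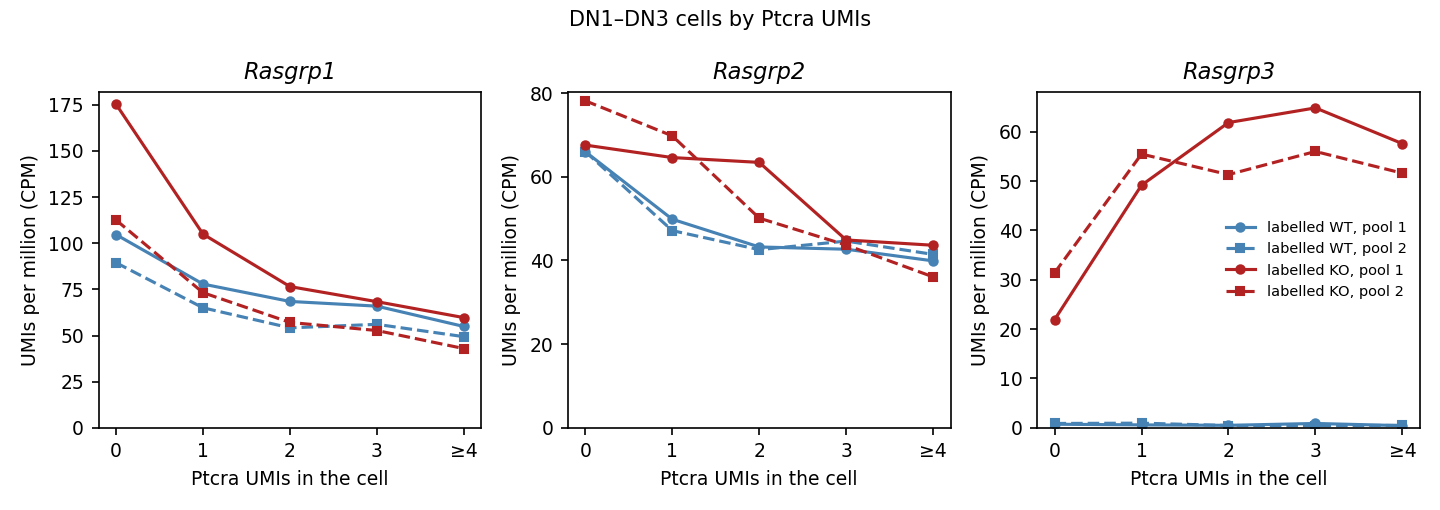
Levels of Rasgrp genes in DN cells split by the number of Ptcra UMIs per cell (horizontal axis), in CPM, with 1 line per library, coloured by label. Rasgrp1 is lower at 4 or more Ptcra UMIs than at 0 in all 4 libraries, and Rasgrp3 in the KO-labelled libraries rises from 21.9 and 31.4 CPM without Ptcra to 61.8 and 51.3 CPM at 2 UMIs.

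Rasgrp1 and Rasgrp2 were compared between cells with and without a Rasgrp3 UMI. Among DN KO-labelled cells with at least 2 Ptcra UMIs, those with a Rasgrp3 UMI had 66.6 and 51.0 CPM of Rasgrp1, and those without had 69.8 and 49.6 CPM, so the direction differed between the pools. Rasgrp2 was higher with a Rasgrp3 UMI in both pools, at 55.5 and 47.7 CPM against 49.3 and 39.8 CPM. Cells with a Rasgrp3 UMI were also deeper, with medians of 8072.5 and 8188 against 6904.5 and 6604 UMIs, and the summed CPM of 5 cycling genes (Mki67, Top2a, Cdk1, Ccnb1 and Ube2c) stood in them at 1085 and 1052 CPM against 810.2 and 603 CPM. The part of depth and cycling in the Rasgrp2 values was not tested.

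In γδ T cells Rasgrp3 was rare. Thymic γδ T libraries held 3 and 3 Rasgrp3 UMIs under the WT label and 42 and 30 under the KO label, the latter in 29 and 19 cells. Splenic libraries held 32 and 6 UMIs under the WT label and 3 and 7 under the KO label. In the library with 32, the 11 cells with at least 5 UMIs of the B-lineage markers together held 22 of them. In thymic γδ T KO-labelled cells, Trgv6-called cells held 0 Rasgrp3 UMIs in 2028 and 2691 cells, which allows up to 0.250 and 0.185 CPM at 3 UMIs per library, while the other called cells held 31 and 20 UMIs, or 1.63 and 1.24 CPM.

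Rasgrp4, the member known from mast cells, was low throughout and higher in γδ T WT-labelled cells than in KO-labelled ones. Thymic γδ T libraries had 563 and 845 UMIs of Rasgrp4 under the WT label, or 9.55 and 11.8 CPM, and 66 and 57 UMIs under the KO label, or 1.56 and 1.26 CPM. Splenic libraries had 2.85 and 2.99 CPM under the WT label, from 120 and 178 UMIs, and 0.320 and 0.518 CPM under the KO label, from 15 and 36 UMIs. The WT to KO ratio was 7.58 in the thymus and 6.97 in the spleen, and the groups did not overlap in either. DN libraries had 0.502 and 0.562 CPM of Rasgrp4 under the WT label and 0.686 and 0.640 CPM under the KO label. Of thymic γδ T cells, 6.65% and 8.42% had a Rasgrp4 UMI under the WT label and 0.898% and 0.721% under the KO label. At 2000 UMIs per cell these shares were 1.64% and 2.25% against 0.301% and 0.238%. For reference, 0.430% and 0.428% of WT-labelled DN cells had one before thinning, at medians of 6231 and 5975 against 6853 and 6850 UMIs in the WT-labelled thymic γδ T cells.

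In the cells with Rasgrp4, Trdc was seen in 96% to 100% in each γδ T library. The mast cell genes Ms4a2, Gata2 and Mcpt8 were at 0 in these cells, while Cpa3, a carboxypeptidase gene also used as a mast cell marker, was seen in 48.8% and 45.2% of them in thymic WT-labelled libraries and in 29.5% and 30.9% in KO-labelled ones. The cells with a Rasgrp4 UMI were deeper, at medians of 10530 and 9551 against 6628 and 6629 UMIs in those without under the WT label, and of 10336 and 8236 against 5723.5 and 5659 UMIs under the KO label. Cpa3 was seen, in thymic γδ T cells without a Rasgrp4 UMI, in 38.1% and 32.4% under the WT label and in 7.08% and 5.04% under the KO label. The summed CPM of the 4 mast cell markers, of which 2 were at 0, was 172 to 222 in thymic γδ T WT-labelled libraries and 25.4 to 39.5 in KO-labelled ones, and its part in the Rasgrp4 difference was not tested.

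Counted over libraries, the groups labelled KO and WT did not overlap for 4 of 4 members in spleen, where 77.8% of 14921 tested genes did not overlap. They did not overlap for 4 of 4 in thymic γδ T cells (80.8% of genes), for 3 of 4 in DN cells (58.8%) and for 2 of 4 in DN cells with at least 2 Ptcra UMIs (51.8%). These members had been chosen for such differences and nothing is read from the counts. Relative to the median of all tested genes, which was shifted by -0.12 on the log2 CPM scale in thymic γδ T cells, the thymic ratios of Rasgrp1 and Rasgrp2 are slightly nearer to 1.

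Comparisons within a library asked how the members differ between cells of the same droplet run, a contrast that did not enter their choice. The difference of such an effect between the labels is not free of that choice. It is built from KO to WT ratios, and the members were chosen by their levels in each genotype. UMIs were summed per library and class of cells, and edgeR's quasi-likelihood test with the library as a block was adjusted over all genes tested. Trgv6-called cells were first compared with other called cells in the spleen. Under the WT label, Rasgrp1 stood at 280 and 317 CPM in Trgv6-called and at 208 and 203 CPM in other called cells. Rasgrp1 was higher in Trgv6-called cells by a log2 ratio of 0.60 (SE 0.074, edgeR adjusted p = 3.96e-06), in a contrast that called 26.8% of genes. Under the KO label, Rasgrp1 stood at 395 and 389.9 CPM against 371 and 380.5 CPM, and the log2 ratio of 0.05 did not pass the test (edgeR adjusted p = 1), where 0.178% of genes were called. The 2 differences were themselves unequal, by -0.55 (SE 0.096, edgeR adjusted p = 0.000315), with 21.5% of genes called, but without the second KO-labelled library that adjusted p was 0.0853. Since the share of genes called between the classes was that low in KO-labelled spleen, the contrast need not set the same kinds of cells against each other in both genotypes.

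Rasgrp2 showed a weaker form of this pattern in splenic Trgv6-called cells. Under the WT label it stood at 191 and 154 CPM against 141 and 138 CPM in other called cells, a log2 ratio of 0.35 (edgeR adjusted p = 0.00522). The call was lost without the first WT-labelled library, at a log2 ratio of 0.18 (edgeR adjusted p = 0.231), and without the library block (edgeR adjusted p = 0.0505). The difference was 0.01 under the KO label (edgeR adjusted p = 1). Rasgrp3 was too low to be tested, and Rasgrp4, with 3 and 3 UMIs in the Trgv6-called cells labelled WT, had too few to be read.

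In thymic γδ T KO-labelled cells, Trgv6-called cells had lower Rasgrp2 and Rasgrp4. Rasgrp2 stood at 45.1 and 34.4 CPM in them and at 83.3 and 76.1 CPM in other called cells, a log2 ratio of -0.98 (SE 0.15, edgeR adjusted p = 0.000695), with 30.2% of genes called. Rasgrp4 had 5 and 7 UMIs against 50 and 33 UMIs, a log2 ratio of -2.39 (edgeR adjusted p = 0.00106), and without the first KO-labelled library the adjusted p was 0.0992. Rasgrp1 was higher in Trgv6-called cells, at 405 and 378 CPM against 307 and 342 CPM. Its log2 ratio of 0.30 passed narrowly (edgeR adjusted p = 0.0438) and did not pass under DESeq2 (adjusted p = 0.113) or without the first or second KO-labelled library (edgeR adjusted p = 0.992 and 0.268). In the 41 and 57 Trgv6-called cells labelled WT, where 3.70% of genes were called, Rasgrp1 and Rasgrp2 did not pass, at log2 ratios of -0.06 and -0.32 (edgeR adjusted p = 0.874 and 0.686), and Rasgrp3 and Rasgrp4 had too few UMIs to be read.

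Thymic γδ T cells with at least 3 Cd24a UMIs, 304 and 408 under the WT label and 72 and 50 under the KO label, were compared with those without one. The Cd24a class held deeper cells, with medians of 19279 and 21998.5 UMIs against 6117.5 and 6081 under the WT label and 14736.5 and 13968.5 against 5632 and 5617 under the KO label, and the part of depth in these comparisons was not tested. The median log2 ratio of all genes in this contrast was -0.10 under the WT label and -0.15 under the KO label. Rasgrp1 was lower in the Cd24a class for both labels. In WT-labelled libraries it stood at 393 and 282 CPM against 650 and 559 CPM, a log2 ratio of -0.75 (edgeR adjusted p = 4.38e-07, 55.1% of genes called). In KO-labelled libraries it stood at 270 and 252 CPM against 348 and 360.3 CPM, a log2 ratio of -0.49 (edgeR adjusted p = 0.000462, 45.1% of genes called). The difference between these 2 effects was 0.26 (SE 0.13, edgeR adjusted p = 0.193).

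Rasgrp2 differed in opposite directions in this contrast. It was lower in the Cd24a class under the WT label, at 68.7 and 67.1 CPM against 101 and 108 CPM, by a log2 ratio of -0.52 (edgeR adjusted p = 7.08e-05). Under the KO label it was higher, at 140.4 and 140.5 CPM against 58.6 and 44.0 CPM, by 1.39 (edgeR adjusted p = 8.03e-09). The 2 effects differed by 1.91 (SE 0.15, edgeR adjusted p = 1.54e-08), and 21.0% of genes were called for such a difference. As said above, that p-value is not free of the choice of members. The contrast also need not set the same kinds of cells against each other in both genotypes. In whole thymic γδ T libraries, Trgv6-called cells made up 0.840% to 0.991% of called cells under the WT label and 44.1% to 53.3% under the KO label. Under the KO label they had 45.1 and 34.4 CPM of Rasgrp2. Their part in this difference was not tested.

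Rasgrp3 and Rasgrp4 had few UMIs in the Cd24a class. Under the KO label, Rasgrp3 had 22 and 7 UMIs in it, or 17.6 and 8.06 CPM, against 11 and 8 UMIs, or 0.294 and 0.193 CPM, in cells without Cd24a. No test is read from these few UMIs. It had 0 UMIs in the Cd24a class under the WT label. Rasgrp4 under the WT label stood at 7.70 and 3.98 CPM against 9.70 and 13.0 CPM, by -0.92 (edgeR adjusted p = 0.0173), and without the second WT-labelled library it differed by -0.18 (edgeR adjusted p = 0.811). Under DESeq2 its adjusted p was 0.184, and without the second KO-labelled library edgeR's adjusted p was 0.0724. The KO-labelled Cd24a class held 3 and 6 Rasgrp4 UMIs, and its log2 ratio of 2.04 did not pass (edgeR adjusted p = 0.0655). The fitted difference between the labels, 2.95 (SE 0.93, edgeR adjusted p = 0.0386), rests on those UMIs and is not read either.

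Among DN cells with at least 2 Ptcra UMIs, cells with at least 3 UMIs of the 5 cycling genes named above were compared with cells that had none of them. The cycling cells were deeper, with medians of 17576 and 16751.5 UMIs against 6058 and 5522 under the WT label and 15353.5 and 14920 against 6479.5 and 6161 under the KO label, and the part of depth was not tested here either. Rasgrp2 was higher in cycling cells for both labels. The WT-labelled libraries had 56.1 and 57.4 CPM in cycling and 23.5 and 20.8 CPM in non-cycling cells, a log2 ratio of 1.50 (SE 0.12, edgeR adjusted p = 8.70e-37). The KO-labelled libraries had 83.4 and 70.2 CPM against 26.3 and 20.1 CPM, a difference of 1.90 (SE 0.12, edgeR adjusted p = 2.22e-59). The effects did not pass a test of their difference, 0.40 (SE 0.18, edgeR adjusted p = 0.197), which 5.54% of genes did. The fitted values of Rasgrp2 lay above its log2 ratios of CPM, which were 1.25 and 1.47 under the WT label and 1.67 and 1.80 under the KO label. This contrast called 65.2% of genes under the WT label and 57.1% under the KO label, and its adjusted p-values are small because the spread was pooled over all genes.

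Rasgrp1 and Rasgrp3 were compared between the same cells. Under the KO label, Rasgrp1 stood at 74.1 and 55.1 CPM in cycling against 58.0 and 48.2 CPM in non-cycling cells, a log2 ratio of 0.41 (edgeR adjusted p = 6.76e-05). Under the WT label it stood at 64.9 and 51.5 CPM against 65.3 and 48.8 CPM, which are log2 ratios of -0.0094 and 0.076 on the CPM scale, and its fitted log2 ratio of 0.17 did not pass (edgeR adjusted p = 0.0936), while with median-of-ratios size factors it did, at 0.22 (edgeR adjusted p = 0.0252), as it did without the first KO-labelled library, at 0.24 (edgeR adjusted p = 0.0148). Rasgrp3 under the KO label stood at 49.9 and 46.9 CPM in cycling and 67.4 and 57.0 CPM in non-cycling cells, which are log2 ratios of -0.43 and -0.28 on the CPM scale, and its fitted log2 ratio of -0.19 did not pass (edgeR adjusted p = 0.130) but did when cycling was set at 5 or more UMIs (-0.26, edgeR adjusted p = 0.0366). Under the WT label, Rasgrp3 rested on 2 and 3 UMIs in cycling against 5 and 3 in non-cycling cells, too few to be read.

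**Figure D3:**
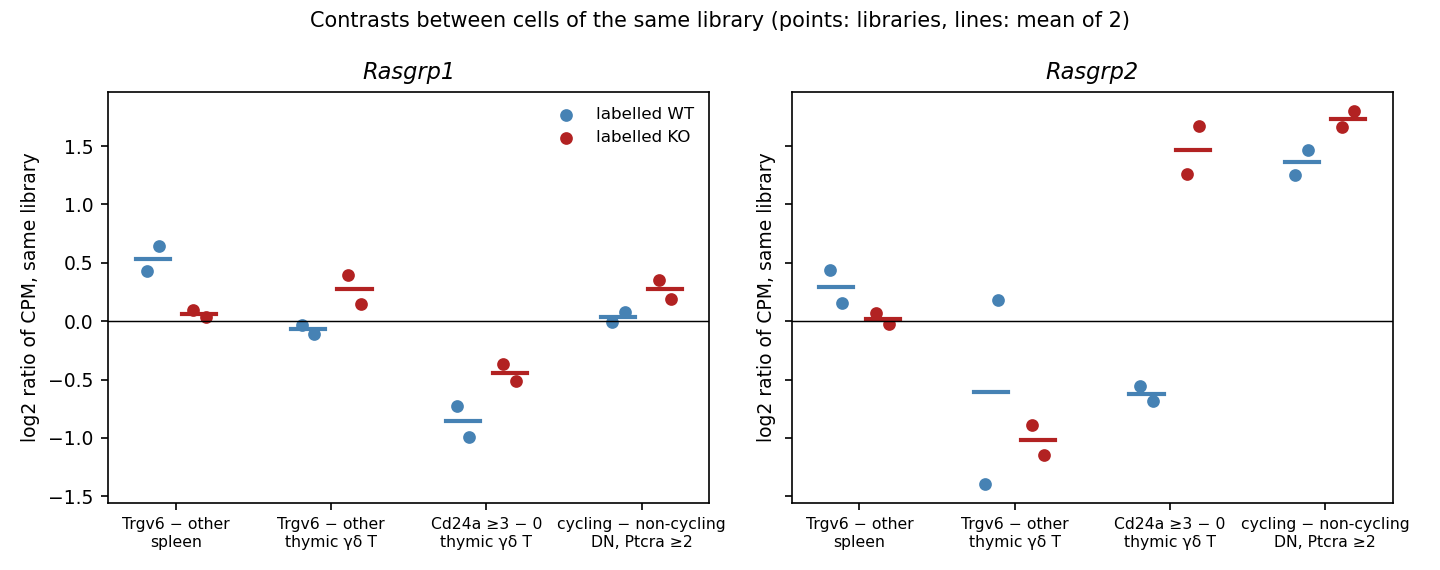
Log2 ratios of CPM of Rasgrp1 and Rasgrp2 between classes of cells of the same library (vertical axis), with 1 point per library, a line at the mean of 2 and the 4 contrasts on the horizontal axis. Rasgrp2 lies below 0 in both WT-labelled libraries and above 0 in both KO-labelled ones for the Cd24a contrast, and above 0 in all 4 for cycling against non-cycling DN cells.

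The genes around the Rasgrp proteins were counted from 8 lists with 103 genes, of which 102 passed the filter on low counts, in an edgeR fit of all 12 libraries. In spleen 27 were higher and 45 lower under the KO label, where 28.6% and 26.1% of all 14921 genes were called higher and lower. Among thymic γδ T cells 22 were higher and 36 lower (26.1% and 23.7% of all genes), the 22 becoming 14 without the second KO-labelled and 13 without the second WT-labelled library, and in DN cells 34 were higher and 6 lower (15.2% and 7.73% of all genes). The median log2 difference over the lists was -0.27, -0.20 and 0.23, against 0.0033, -0.0017 and -0.019 over all genes. The median over all lists together thus lay below that of all genes in γδ T cells and above it in DN cells, which was not tested. Single lists went the other way in spleen, where more small GTPases and more Rap1 effectors and integrins were higher than lower. The lists were set with earlier results of these data known, so these medians are a description.

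Genes that supply or remove diacylglycerol, the signal that RASGRP1 reads, were called in both directions. Of 14 listed genes, 2 were higher and 3 lower in spleen, 3 and 4 in thymic γδ T cells, and 1 and 3 in DN cells. Of all genes, 28.6% and 26.1% were called higher and lower in spleen. The shares were 26.1% and 23.7% in thymic γδ T cells and 15.2% and 7.73% in DN cells. With both directions together, the counts of this list are near or below those shares, so nothing is read from them. Dgka, the diacylglycerol kinase known to restrain RASGRP1 in T cells, fell from 311 ± 27.9 CPM to 39.0 ± 3.54 CPM (SD, n = 2) in spleen, a log2 ratio of -2.90 (SE 0.16, edgeR adjusted p = 4.42e-07). Dgka also fell in thymic γδ T cells, by 1.35 on the log2 scale (edgeR adjusted p = 6.32e-05). Plcb3, a phospholipase C gene, rose in spleen by 1.69, Dgkg fell in thymic γδ T cells by 2.44, and in DN cells Dgke fell by 0.93 and Dgkh rose by 1.96, from a level of 3.47 CPM, and by 1.17 without the first KO-labelled library.

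The direct partners of the family were counted in the same way. Of the 9 tested exchange factors outside the family, 1 was higher and 8 lower in splenic KO-labelled cells, among them Rapgef6, a Rap exchange factor (-1.08), and Sos2, a Ras exchange factor (-1.57). The thymic γδ T counts were 1 higher and 4 lower, with Rapgef4 at 2.11 and Rapgef3 at -1.80, and in DN cells 3 were higher and 2 lower, with Rapgef4 at 2.02 and Rasgrf2 at -0.93. Of 16 GTPase activators, which switch Ras and Rap off, 2 were higher and 6 lower in spleen, 3 and 8 in thymic γδ T cells, and 6 and 0 in DN cells. The 8 activators called in spleen and the 5 exchange factors called in thymic γδ T cells are near the shares of all genes given above, so nothing is read from those counts. Rap1gap2, which acts on Rap1, rose from 34.8 ± 7.82 to 264 ± 2.31 CPM (SD, n = 2) in spleen (log2 difference 3.02, SE 0.21, edgeR adjusted p = 2.19e-06) and rose by 2.33 in DN cells, but fell by 0.84 in thymic γδ T cells. Rasa4 rose by 3.47 in spleen and 3.59 in thymic γδ T cells, and Rasa3 rose by 1.10 in DN cells.

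Among the small GTPases themselves, 7 of 11 were higher and 3 lower in spleen, 3 and 3 in thymic γδ T cells, and 2 and 0 in DN cells. The thymic γδ T and DN counts are near the shares of all genes given above, so nothing is read from them. Rras2, a Ras relative, fell from 168 ± 3.66 to 7.17 ± 0.58 CPM (SD, n = 2) in spleen (log2 difference -4.46, SE 0.16, edgeR adjusted p = 3.69e-08) and by 1.42 in thymic γδ T cells, while Hras rose by 1.01 in spleen, Rras by 1.71 in thymic γδ T cells and Rap2a by 1.05 in DN cells. Rap2a rose by 0.62 without the first KO-labelled library and did not pass without the first or second WT-labelled library (edgeR adjusted p = 0.0517 and 0.0536). Of 10 Rap1 effectors and integrins, 6 were higher and 2 lower in spleen, 5 and 2 in thymic γδ T cells, and 5 and 0 in DN cells. In spleen the integrin gene Itga4 fell by 2.57 and Itgb1 rose by 2.44. Itga4 also fell by 1.75 in thymic γδ T cells, where Itgb7 rose by 1.90, and in DN cells Itgb7 rose by 3.23 and Itgb2 by 2.13.

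Other listed signalling genes, most of them of proteins with a C1 domain that can bind diacylglycerol (but not Unc13d and Vav1), were mostly lower in splenic KO-labelled cells, with 3 of 13 higher and 8 lower. Prkch, the protein kinase C isoform η, fell from 716 ± 3.87 to 19.97 ± 0.0244 CPM (SD, n = 2) in spleen (log2 difference -5.07, SE 0.27, edgeR adjusted p = 4.42e-07), and Chn2, a Rac GTPase activator, fell by 5.98. The thymic γδ T counts were 3 higher and 5 lower, with Prkce at 2.43 and Prkcb at -1.90. In DN cells 4 were higher and 0 lower, with Chn2 at 2.90 and Prkce at 1.24, and Chn2 did not pass without the first KO-labelled library (edgeR adjusted p = 0.0615). Of all genes, 28.6% and 26.1% were called higher and lower in spleen. The shares were 26.1% and 23.7% in thymic γδ T cells and 15.2% and 7.73% in DN cells. With both directions together, the thymic γδ T and DN counts of this list are not far above those shares, so nothing is read from them.

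Downstream, 12 of 18 genes of the Raf-MEK-ERK cascade and its brakes were called in spleen (5 higher, 7 lower), 7 in thymic γδ T cells (1 higher, 6 lower) and 5 in DN cells (4 higher, 1 lower). With both directions together, the splenic count is not far above the shares of all genes given above. The thymic γδ T and DN counts are near or below those shares. Nothing is read from those counts. The brakes Spry2 and Spred2 fell by 2.53 and 1.60 in spleen, and Spred1 and Spred2 fell by 1.15 and 1.06 in thymic γδ T cells. Map2k1, the gene of MEK1, rose by 0.30 in DN cells, where it passed narrowly (edgeR adjusted p = 0.0261) and did not when the first KO-labelled or either WT-labelled library was left out. Of 11 early response genes downstream of ERK, 1 was higher and 8 lower in spleen, with a median log2 ratio of -2.40, and 3 were higher and 4 lower in thymic γδ T cells. In DN cells 9 were higher and 0 lower, with a median of 1.43. Id3 fell from 254 ± 40.2 to 13.2 ± 2.88 CPM (SD, n = 2) in spleen (log2 difference -4.17, SE 0.27, edgeR adjusted p = 1.43e-06) and Egr3 by 3.69. Nr4a1 fell by 1.92 and Junb rose by 1.95 in thymic γδ T cells, and in DN cells Cd69 rose by 1.41 and Junb by 1.43. Without the first KO-labelled library these DN values were 0.80 and 0.95. Cd69 did not pass without the second WT-labelled library (edgeR adjusted p = 0.0624).

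**Figure D4:**
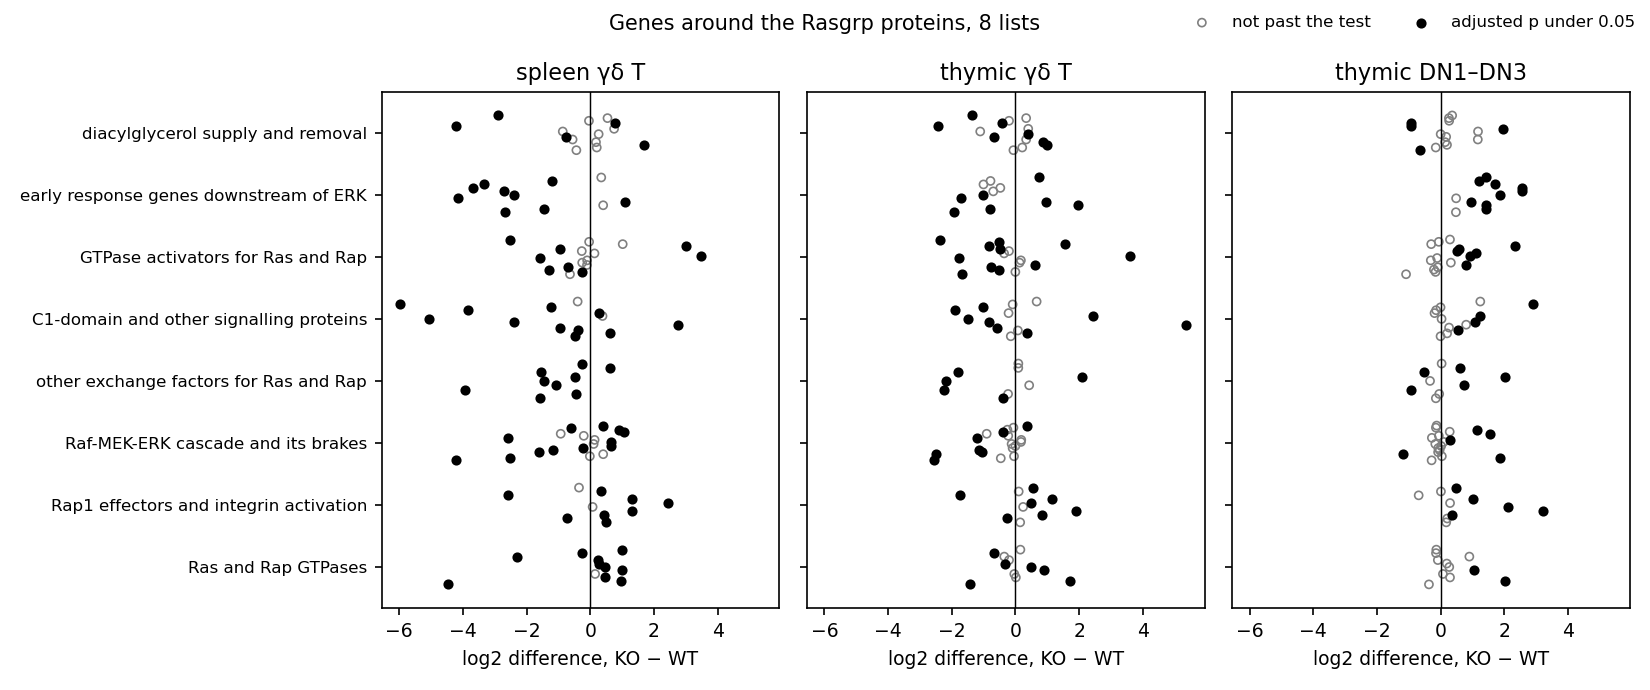
Log2 differences (KO minus WT) of the genes in 8 lists around the Rasgrp proteins, with 1 point per gene, for the 3 compartments, and filled points where the edgeR adjusted p was under 0.05. Early response genes lie mostly to the left in spleen (8 of 11 lower) and to the right in DN cells (9 of 11 higher).

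Other markers moved with these counts. The summed CPM of the 5 cycling genes, none at 0, was 1161 to 1182 in WT-labelled and 732 to 870 in KO-labelled DN libraries, and 1085 to 1338 and 248.3 to 302.3 in thymic γδ T libraries. In spleen the summed CPM of the 4 αβ T-cell markers was 199 to 251 in WT-labelled and 59.98 to 65.2 in KO-labelled libraries, with Cd4 at 0 in the latter and Cd8b1 at a mean of 106 against 4.89 CPM. The splenic sum of the 3 B-lineage markers was 26.3 to 30.4 against 52.1 to 52.5 CPM, that of 6 myeloid markers was 91.2 to 105 against 313 to 337 CPM, and that of the progenitor markers Kit, Flt3 and Cd34 was 25.5 to 25.7 against 1.32 to 1.54 CPM. Most of these sums came from Cd79b, Cst3 and Kit, and S100a8 and S100a9 under the WT label and Mpo and Cd34 under the KO label were at 0 in 1 library each. Splenic Cd79a, Ebf1, Lyz2 and Csf1r had lower means under the KO label, against the direction of their sums. They stood at 1.02, 1.53, 1.65 and 0.359 CPM under the WT label and 0.511, 0.934, 0.392 and 0.204 CPM under the KO label. The libraries overlapped for each of them, and splenic Mpo, S100a8 and S100a9 stood at no more than 0.101 CPM. The myeloid and progenitor sums of thymic γδ T libraries were 89.4 to 95.96 and 28.9 to 29.6 CPM under the WT label and 175 to 185 and 5.55 to 7.58 CPM under the KO label. Most of this myeloid sum was Cst3, at means of 92.2 and 180 CPM under the WT and KO labels. Lyz2 and Csf1r went the other way, at means of 0.314 and 0.121 CPM under the WT label and 0.220 and 0.0803 CPM under the KO label. Thymic Mpo, S100a8 and S100a9 stood at no more than 0.198 CPM. The αβ T-cell marker sums of the DN libraries and the shares of Trgv6-called cells are given above, and the part of these in the list counts was not tested.

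The DN counts differed with the cells taken and with single libraries. In DN cells with at least 2 Ptcra UMIs, 17 of 90 tested list genes were higher and 3 lower (10.5% and 6.55% of all genes), and 1 of 8 early response genes was called. With the pool as a block, 36 list genes were called there in place of 20, of which 26 were higher and 10 lower. The 3 lower became 1 under DESeq2 and 5 without the low-count filter. Over all DN cells, 40 list genes were called, and 23, 23 and 24 when the first KO-labelled, the first WT-labelled or the second WT-labelled library was left out. In splenic Trgv6-called cells, 3 of 87 tested list genes were higher and 12 lower (5.20% and 6.80% of all genes). That count of 15 became 9 and 8 without the first and second KO-labelled library and 23 and 8 without the first and second WT-labelled library. Several genes named above for the whole spleen had smaller values in Trgv6-called cells. Itgb1, Plcb3 and Hras did not pass there, at 0.13, 0.034 and 0.29 (edgeR adjusted p = 0.630, 0.971 and 0.241), and Rap1gap2 and Rasa4 rose by 0.55 and 0.74 (edgeR adjusted p = 0.0368 and 0.0125). Dgka, Rras2 and Chn2 fell there as well, at log2 values of -1.88, -3.54 and -4.52, while Prkch, Id3 and Itga4 did not pass, at -4.28, -3.23 and -1.74 (edgeR adjusted p = 0.0604, 0.125 and 0.265). Among early response genes only Ier2 was called in these cells, higher by 0.45 (edgeR adjusted p = 0.0375). Egr2, Egr3 and Nr4a1 did not pass, at -1.94, -1.54 and -0.99 (edgeR adjusted p = 0.171, 0.260 and 0.150). Junb and Egr1 lay at 0.43 and 0.38 without passing (edgeR adjusted p = 0.0565 and 0.514). The WT-labelled libraries held only 188 and 229 such cells. Effects differed between spleen and thymic γδ T cells for 44 of the 102 list genes, 16 higher and 28 lower (13.7% and 15.9% of all genes), and for 29 and 26 without the first and second WT-labelled library of thymic γδ T cells. The 16 higher became 8 and 10 without those, 10 without the second splenic KO-labelled library and 9 without either splenic WT-labelled library, and the 28 lower became 16 without the second thymic WT-labelled library.

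The genes whose levels over the 12 libraries were most like those of each member were found by Pearson's r of log2(CPM + 1), as a description. The 12 points share pools, organs and genotypes. For Rasgrp1 the nearest of 8923 genes were Gem (r = 0.99), Septin7 (0.98) and Camkmt (0.97). For Rasgrp2 they were Agpat3 (0.96), Icam2 (0.96) and Poldip3 (0.95). For Rasgrp3 they were Ighg2b (0.97), 1110059E24Rik (0.94) and Tmem186 (0.93), with Ighg2b, an immunoglobulin heavy chain constant region gene, at a mean of 2.66 CPM in DN WT-labelled libraries and 179 CPM in KO-labelled ones. For Rasgrp4 they were Vmn2r84 (0.98), Ap1b1 (0.97) and Sh3kbp1 (0.96).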

How the data were processed

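The authors deposited whole-number UMI counts, made with Cell Ranger 8.0.1 on GRCm39 per the submitters' processing notes, after calling cells, splitting each pool by hashtag and removing doublets of both genotypes. Doublets within a genotype were not called here. The authors' limits on cells (500 UMIs, 200 genes, 20% mitochondrial) kept 96911 of 97404, and UMIs were summed per library and class of cells.

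Levels are CPM of all UMIs. Tests used edgeR 4.0.16 (R 4.3.3, limma 3.58.1) with TMM, the default low-count filter, robust quasi-likelihood fits and Benjamini-Hochberg adjustment over all genes tested, with an adjusted p under 0.05 called; DESeq2 1.42.0 was an alternative. Ribosomal, mitochondrial and Gm-numbered genes (9538) were left out of tests. Shares of cells were thinned to 2000 UMIs per cell, leaving out shallower cells. The study's cell-level test was not used, since cells of 1 library are not replicates. P-values measure only the spread between libraries of 2 pools, and much of that spread was shared between genes or groups. The fits within libraries had 2 residual degrees of freedom. The median prior degrees of freedom, borrowed from other genes, were 16.35 for splenic Trgv6, 12.55 for thymic Trgv6 and 17.29 for Cd24a. They were infinite for cycling. The fit of KO against WT shared 1 estimate of a gene's spread over the 12 libraries.

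The members and gene lists were chosen with earlier results of these data known. Genes other than members were named by a rule, the 2 called genes of each list and compartment with the largest difference at a mean of at least 10 CPM in either genotype. Libraries labelled WT and KO of the same pool shared the droplet run, so the pool number pairs them. Deviations of paired libraries correlated over genes at r = 0.48 in spleen, 0.059 in thymic γδ T cells and 0.40 in DN cells. The fits were also run on simulated counts, and no result here rests on that run. Alternatives were another normalization, no low-count filter, DESeq2, the pool block, leaving out each library and other gates. Depth limits Rasgrp3 and Rasgrp4, and a count of 0 allows up to 3 UMIs. Such limits cover counting error only.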

Additional observations from a re-analysis of the deposited data

Results flagged for a closer look

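Rasgrp1 and Rasgrp2 were singled out because their values moved in opposite directions in 2 organs. The log2 difference between KO-labelled libraries and WT was 0.93 for Rasgrp1 in spleen and -0.65 in thymic γδ T cells, and 0.15 and -0.66 for Rasgrp2, with every pool of an organ on the same side. These differences between organs were not tested, and the splenic value of Rasgrp2 ran from 0.014 to 0.24 with the scale.

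Within libraries, 4 values of Rasgrp1, Rasgrp2 and Rasgrp4 passed a test of the difference in effect between the labels. Such a difference is built from KO to WT ratios, and the members were chosen by their levels in each genotype. These p-values are therefore not independent of the choice. The effect of a Trgv6 call in spleen, where the Trgv6-called and other called cells differed in 26.8% of genes under the WT label and 0.178% under the KO label, differed between the labels, KO minus WT, by -0.55 on the log2 scale for Rasgrp1 and by -0.35 for Rasgrp2 (edgeR adjusted p = 0.000315 and 0.0304). The effect of the Cd24a class in thymic γδ T cells differed by 1.91 for Rasgrp2 and 2.95 for Rasgrp4 (edgeR adjusted p = 1.54e-08 and 0.0386). The cells compared in the Cd24a contrast need not be of the same kinds in both genotypes. The Rasgrp4 value rests on 3 and 6 UMIs and its effect under the KO label did not pass (edgeR adjusted p = 0.0655), so it is not read. Rasgrp3 passed the latter test as well (edgeR adjusted p = 0.0185), but it had 0 UMIs in the Cd24a class under the WT label and is not read. The splenic Rasgrp2 difference did not pass under DESeq2 (adjusted p = 0.203) or without the library block (edgeR adjusted p = 0.185). It was also lost without the first or second KO-labelled library (edgeR adjusted p = 0.173 and 0.476) and without the first WT-labelled library, where it was -0.18 (edgeR adjusted p = 0.250). The splenic Rasgrp1 difference was lost without the second KO-labelled library, at -0.49 (edgeR adjusted p = 0.0853).

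For 20 of the 26 genes named for spleen or thymic γδ T cells, which had been picked for large differences in 1 of them, the splenic effect differed from the thymic γδ T effect in the edgeR interaction test, and organ cannot be told apart from the mice and run of each pool. On the log2 scale, spleen minus thymus was -5.90 for Chn2, -3.57 for Prkch, -3.21 for Egr3, -3.04 for Rras2, -2.60 for Rapgef4, -2.46 for Id3, -2.07 for Spry2, -2.04 for Prkce, -1.94 for Prkcb and -1.78 for Dgkg. It was -1.55 for Dgka, -1.55 for Junb, -1.51 for Rapgef6, -1.20 for Sos2, -0.76 for Nr4a1 and -0.74 for Rras. It was positive for Plcb3 (0.69), Hras (0.85), Itgb1 (1.96) and Rap1gap2 (3.87). Over all genes tested, 13.7% were higher and 15.9% lower in this test. The edgeR adjusted p of the 20 ran from 1.55e-05 for Rras2 to 0.0393 for Rras. It did not pass for Itga4 (-0.82), Itgb7 (-0.59), Spred2 (-0.54), Rapgef3 (0.25), Rasa4 (-0.12) and Spred1 (-0.028), with edgeR adjusted p of 0.117 to 0.941.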

How the results depend on the processing

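Most alternative values stayed on their side of the threshold, with 177 of 196 for members within libraries and 466 of 474 for named pathway genes. A change of sign was counted as unchanged there where neither value passed. Member levels and shares have no threshold, and 71 of 81 kept their direction and moved by less than the SD between libraries. Of the list counts, 146 of 183 stayed within 1.5 times. With the pool as replicate block, 36 list genes were called in DN cells with at least 2 Ptcra UMIs. Leaving out 1 library at a time gave 13 to 19 there, 23 to 52 in all DN cells, 8 to 23 in splenic Trgv6-called cells, 26 to 36 for the spleen minus thymus effect, 60 to 65 in spleen and 45 to 50 in thymic γδ T cells. A lone library left in a group was assumed to vary like the others.

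Within libraries, the log2 values that changed side were 0.36 for splenic Rasgrp2 (WT, Trgv6) without the replicate block (0.18 to 0.52 when 1 library was left out), -0.33 under DESeq2 and -0.35 without the block for the splenic Rasgrp2 difference between labels (-0.52 to -0.18), the Rasgrp1 difference (-0.62 to -0.46), 0.31 under DESeq2 and 0.30 without the block for thymic Rasgrp1 (KO, Trgv6; 0.19 to 0.43), -0.90 under DESeq2 for Rasgrp4 (WT, Cd24a; -1.60 to -0.18), 0.22 with median-of-ratios size factors for Rasgrp1 (WT, cycling; 0.13 to 0.24) and -0.26 for Rasgrp3 (KO) with the stricter cycling gate. Thymic Rasgrp4 (KO, Trgv6) ran from -2.61 to -2.18.

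The splenic log2 difference was 0.80 for Rasgrp1 and 0.014 for Rasgrp2 without ribosomal, mitochondrial and Gm-numbered genes, and 0.97 for Rasgrp1 without cells with a B-lineage marker UMI, chosen after seeing the data. After thinning, KO minus WT in the share of cells with a UMI, in percentage points, was 20.8 for Rasgrp1 in spleen, 1.92, -8.34 and 1.65 for Rasgrp2 in spleen, thymic γδ T and DN cells (the last reversed), 6.05 for Rasgrp3 in DN cells, and -0.53 and -1.68 for Rasgrp4 in spleen and thymic γδ T cells. The reversal for Rasgrp2 in DN cells is against the unthinned share, which was lower under the KO label. Its thinned share lay on the same side as its CPM, with a KO to WT ratio of 1.15. The cause of these changes was not tested.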
